A study of Mus musculus with 36 samples.

Results

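MicroRNAs (miRNAs) of liver and of epididymal white adipose tissue (eWAT, the fat pad beside the epididymis) were compared within the LF group of an F1 generation of mice. All 1966 miRNAs named in the deposited count table were members, and 9 of the 36 libraries of the study entered the comparison. These were liver replicates 1, 2, 3, 5 and 6, which the authors kept in their log2 table of liver, and eWAT replicates 2, 3, 5 and 6. The animals were C57BL/6 wild-type males aged 24 weeks that ate chow to week 6 and a specific diet for the 18 weeks after that. The diet tag of both tissues in LF is LFD. The HF and HFLF groups, used below to repeat the comparison, carry the tags HFD and HFLFD, while the treatment text gives LFD for every sample, so it is not said whether a group name is the diet of the mouse or of its father. Nothing in the labels says that replicates are separate mice, and p-values measure only the spread between these libraries, which may be technical.

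The eWAT libraries had been chosen on measured values. The epithelial miR-200 family summed to 104.7 to 290 CPM (counts over the column total, on a fixed scale) in the 4 eWAT libraries kept and to 15997 and 20819 CPM in eWAT 1 and 4, which were left out. In the 5 livers it summed to 316 to 682 CPM. Its 10 members, 7 of them measurable, were therefore left out of every count of calls below, and no test of them is reported, although they stayed in the fit and in the adjustment of p-values. The eWAT libraries left out were also high in other epithelial miRNAs. On a scale set over the 12 LF libraries, miR-375-3p of endocrine and glandular epithelium stood at 2024 CPM in eWAT 1 and at no more than 29.9 in the eWAT libraries kept. miR-205-5p of stratified epithelium stood at 1836 in eWAT 4 and at no more than 8.99 in those kept. The tissue labels were matched by the miRNAs of hepatocytes, which are given below, and by miR-143-3p, the leading miRNA of every eWAT library. Column totals of the 9 libraries were 7866583 to 15608292 counts.

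A miRNA is cut from a hairpin precursor whose 5p and 3p arms can each be loaded into an Argonaute protein. The loaded strand finds messenger RNAs mainly through its seed, bases 2 to 8, so miRNAs that share a seed can read the same target sites. In liver, miR-122 is the classic hepatocyte miRNA and supports cholesterol and lipid metabolism. White fat holds adipocytes together with stromal, vascular and immune cells, and miR-143, miR-335 and miR-103 have been studied in adipocyte differentiation and insulin action.

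The mature sequences that carry the results are shown with the seed in capitals, from RefSeq on GRCm38, in which 1675 of the 1966 names were matched (45.3% of the liver and 77.3% of the eWAT counts). The first set holds miRNAs high in liver, with miR-215-5p as the seed partner of miR-192-5p.
miR-192-5p: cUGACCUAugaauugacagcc
miR-215-5p: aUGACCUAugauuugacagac
miR-194-5p: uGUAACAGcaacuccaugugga
miR-31-5p: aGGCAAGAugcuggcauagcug
miR-802-5p: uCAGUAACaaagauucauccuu
miR-455-3p: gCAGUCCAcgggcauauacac
The second set holds miRNAs high in eWAT, with miR-10a-5p and miR-28a-5p as the seed partners of miR-10b-5p and miR-708-5p.
miR-10b-5p: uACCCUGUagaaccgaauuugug
miR-10a-5p: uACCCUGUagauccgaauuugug
miR-615-3p: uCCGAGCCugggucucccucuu
miR-708-5p: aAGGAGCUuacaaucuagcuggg
miR-28a-5p: aAGGAGCUcacagucuauugag
miR-218-5p: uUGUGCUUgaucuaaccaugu
miR-335-5p: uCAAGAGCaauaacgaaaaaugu
The third set holds pairs with 1 seed whose members were used in unlike proportion by the tissues.
miR-103-3p: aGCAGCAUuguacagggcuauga
miR-107-3p: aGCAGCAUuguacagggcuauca
miR-148a-3p: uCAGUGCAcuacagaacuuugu
miR-152-3p: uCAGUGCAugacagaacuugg
miR-27b-3p: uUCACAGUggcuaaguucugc
miR-27a-3p: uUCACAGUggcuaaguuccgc
miR-146b-5p: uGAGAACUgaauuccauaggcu
miR-146a-5p: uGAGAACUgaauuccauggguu
miR-92a-3p: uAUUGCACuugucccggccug
miR-25-3p: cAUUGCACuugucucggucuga
miR-16-5p: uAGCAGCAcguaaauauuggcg
miR-195a-5p: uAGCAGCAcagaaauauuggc
miR-26a-5p: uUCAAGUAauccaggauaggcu
miR-26b-5p: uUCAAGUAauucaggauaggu
The last set holds let-7 members, which read one seed and differ in the bases after it.
let-7f-5p: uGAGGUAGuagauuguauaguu
let-7a-5p: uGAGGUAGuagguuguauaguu
let-7g-5p: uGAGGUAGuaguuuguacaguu
let-7c-5p: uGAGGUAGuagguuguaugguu
let-7i-5p: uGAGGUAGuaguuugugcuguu

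Liver small RNA was dominated by 1 miRNA and eWAT by several. In the livers miR-122-5p took 47.2%, 53.7%, 52.9%, 49.2% and 51.5% of the counts of replicates 1, 2, 3, 5 and 6. No miRNA came near that share in eWAT, where miR-143-3p led with 16.7% ± 4.01 (SD, n = 4). The median read, counted from the most abundant miRNA down, fell on rank 1 or 2 in a liver library and on rank 6 or 7 in an eWAT library. In a liver the leading 10 miRNAs made up 80.2% to 83.1% of the library, and in an eWAT library 61.7% to 66.3%, a difference of 17.9 ± 1.27 percentage points (SE). An exact 2-sided permutation test over the 9 libraries gave p = 0.015873, the smallest that assigning 9 libraries to groups of 5 and 4 allows.

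Of the 10 most abundant miRNAs of each tissue, 8 were common to both: miR-21a-5p, let-7f-5p, let-7a-5p, let-7g-5p, let-7c-5p, miR-26a-5p, miR-30a-5p and miR-30d-5p. Liver added miR-122-5p and miR-192-5p, and eWAT added miR-143-3p and miR-10b-5p. miR-10b-5p ranked 9 in eWAT and 191 in liver, and miR-192-5p ranked 9 in liver and 132 in eWAT. More miRNAs were seen in fat. A liver library held a count of 563 to 624 miRNAs and an eWAT library of 699 to 755. At the depth of the smallest library the expected numbers were 553.8 to 599.8 and 688.0 to 736.8. Totals were matched in this, and miR-122-5p took 47.2% to 53.7% of each liver total, so fewer counts were left there for the other miRNAs.

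A plain CPM is a share of the counts, of which miR-122-5p holds 50.9% in liver on average. Levels are given here as scaled CPM, that is CPM divided by a TMM factor of edgeR, which sets the bulk of miRNAs about equal between libraries. A scaled CPM in liver is larger than the share of counts it stands for. The choice moved every difference by a median of 1.45 on the log2 scale, which is 2.74-fold. A count of RNA molecules per cell would be needed to choose between the scales, so the text says where a direction holds on both.

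With TMM, 284 of 537 counted miRNAs differed between the tissues at an adjusted p under 0.05 (edgeR quasi-likelihood F test, Benjamini-Hochberg over the 544 tested). Of these 136 were higher in liver (25.3% of those counted) and 148 higher in eWAT (27.6%). Past a 2-fold difference there were 58 (10.8%) and 86 (16%). Under plain CPM the split was 39 (7.26%) higher in liver and 334 (62.2%) higher in eWAT. All 148 eWAT calls and 39 of the 136 liver calls were made on both scales, and 74 of the liver calls changed sign on plain CPM. The libraries of the tissues did not overlap in 123 miRNAs higher in liver (22.9%) and in 131 higher in eWAT (24.4%).

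**Figure D1:**
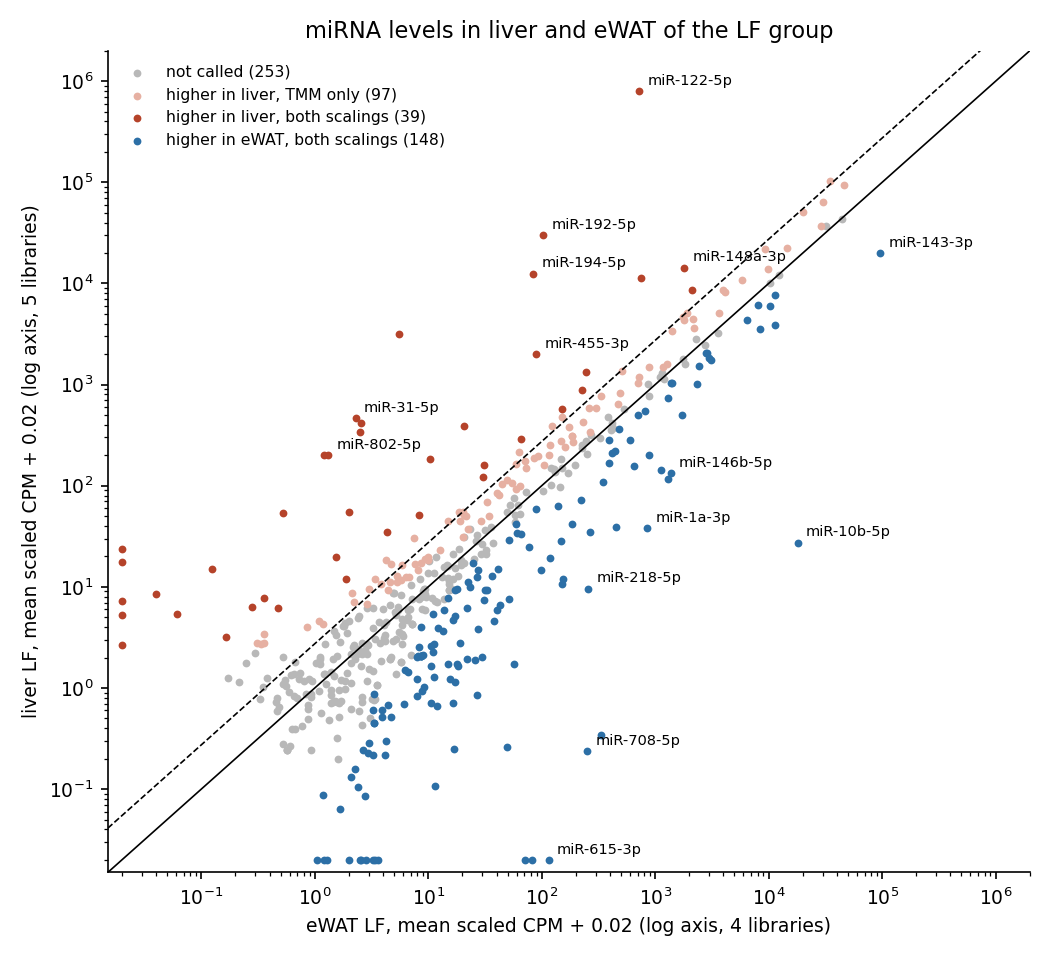
Mean scaled CPM of each of 537 miRNAs in eWAT LF (x axis, 4 libraries) and liver LF (y axis, 5 libraries), both on log axes after adding 0.02. The solid line marks equal scaled CPM and the dashed line equal plain CPM. The 39 dark red points are called higher in liver on both scales and lie above both lines, the 97 pale red points are called with TMM only, and the 148 blue points are called higher in eWAT on both scales.

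The miRNAs of hepatocytes were the highest above fat. miR-122-5p stood at 682390, 902120, 896520, 711480 and 819570 scaled CPM in the livers and at 310, 842, 1179 and 560 in eWAT 2, 3, 5 and 6, a log2 difference of 10.12 ± 0.45 (SE, adjusted p = 2.1e-09, edgeR). Its other arm, miR-122-3p, differed by 9.19 ± 0.27 on that scale. The proportions of these miRNAs differed between the tissues. In liver there were 20.4 to 32.8 counts of miR-122-5p per count of miR-192-5p, and in eWAT 3.78 to 11.1. Per count of miR-194-5p there were 44.7 to 85.8 in liver and 3.98 to 16.03 in eWAT. The source of these reads in eWAT was not tested.

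miR-192 and miR-194 are made together in liver and gut epithelium. miR-192-5p lies at chr19:6264857-6264877 on the plus strand of GRCm38, outside annotated genes on that strand, in 1 cluster with miR-194-2. It stood at 27368 to 33443 scaled CPM over the livers and at 81.9 to 115 over the eWAT libraries, a log2 difference of 8.20 ± 0.16 (adjusted p = 2.9e-13, edgeR). miR-194-5p, which 2 loci encode, stood at 10455 to 15253 and 73.6 to 95.4, a log2 difference of 7.21 ± 0.17. The passenger arm miR-194-2-3p differed by 7.35 ± 0.37, and miR-192-3p was at 12.8 to 22.5 in the livers and at 0 in every eWAT library, at least 551-fold higher against a floor of 3 counts over the summed eWAT totals. miR-215-5p has the seed of miR-192-5p but was no liver miRNA here. It was at 20.2 to 30.9 in liver and at 8.93, 92.7, 9.79 and 7.21 in eWAT, where eWAT 3 stood far above the others (adjusted p = 0.86, edgeR). Without eWAT 3 it was higher in liver with TMM, by 1.61 (adjusted p = 0.00025, edgeR). With eWAT 1 and 4 added, of which eWAT 1 was high in both miRNAs, the log2 differences of miR-192-5p and miR-194-5p were 6.26 and 5.66. Liver 4, left out, held miR-192-5p at 5502.5 on the scale set over the 12 LF libraries, where the livers kept held 28379 to 36791.

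miR-802-5p, which has been linked to glucose intolerance in obese liver, was at 103 to 288 scaled CPM in liver and at 0, 4.1, 0.541 and 0.521 in eWAT, a log2 difference of 7.35 ± 1.00 (adjusted p = 0.00011, edgeR). The groups did not overlap, and without eWAT 3 the log2 difference was 9.14. In all, 10 of 12 tested members of the hepatocyte list were higher in liver on both scales, where 7.26% of all counted miRNAs were. The list had a median log2 difference of 7.35 against -0.16 over all counted miRNAs. The members not called were the miR-215 arms.

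Other miRNAs were as much a mark of liver as the listed ones. miR-31-5p, at chr4:88910614-88910635 in an exon of a long non-coding RNA, was at 402 to 521 scaled CPM in liver and at 1.33 to 3.04 in eWAT (log2 difference 7.68 ± 0.27, adjusted p = 7.5e-11, edgeR; 6.68 with eWAT 1 and 4 added). miR-1948-5p was at 178 to 235 and 0.672 to 1.62, and its other arm miR-1948-3p differed by 7.09 ± 0.34. miR-592-5p was at 23.3 to 88.8 and 0.25 to 0.893, a log2 difference of 6.72 ± 0.52. miR-3105-3p was at 15.3 to 35.7 in liver and 0 in all eWAT libraries, at least 729-fold higher. Each of these separated the tissues without overlap.

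miR-455-3p varied little between the livers kept. It was at 1936, 1964, 2058, 1920 and 2043 scaled CPM in these livers and at 105, 97.8, 96.1 and 60.6 in eWAT (log2 difference 4.47 ± 0.17). In liver 4, left out, miR-455-3p was at 1001 on the scale set over the 12 LF libraries, where the livers kept held 1952 to 2202. It sits in an intron of Col27a1 and is known from brown fat, where it is induced. Of the 9 tested miRNAs of the brown and beige list both miR-455 arms were higher in liver. In eWAT 3 were higher, where 27.6% of all counted miRNAs were, and 4 were not called. Those higher in eWAT were miR-193b-5p, miR-365-3p (285 and 598 on average) and miR-193b-3p (0.697 and 10.6), whose log2 difference of -3.79 ± 0.90 became -5.48 without liver 1.

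The clustered miR-183, miR-96 and miR-182, known from sensory cells and epithelia, were all higher in liver on both scales. miR-182-5p was at 228 to 645 scaled CPM in liver and 8.83 to 28.9 in eWAT (log2 difference 4.25 ± 0.41), miR-183-5p at 123 to 300 and 7.58 to 17.3 (4.15 ± 0.36) and miR-96-5p differed by 3.76 ± 0.95. These rested on the choice of eWAT libraries. In eWAT 4, left out, miR-182-5p was at 1392 and miR-183-5p at 668, and with eWAT 1 and 4 added the log2 differences of miR-182-5p and miR-183-5p were 0.52 and 0.47 (adjusted p = 0.75 and 0.77, edgeR) and that of miR-96-5p was -0.30. Without eWAT 3 that of miR-96-5p was 4.54.

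Several abundant miRNAs were higher in liver on both scales by smaller factors. miR-101b-3p was at 9909 to 14486 scaled CPM in liver and 620 to 879 in eWAT (log2 difference 3.91 ± 0.16), and miR-148a-3p at 13084 to 17608 and 1376 to 2220 (2.99 ± 0.17). miR-148a targets the LDL receptor messenger RNA. Liver 4, left out, held miR-148a-3p at 3235 on the scale set over the 12 LF libraries, where the livers kept held 13000 to 19370. miR-7a-5p differed by 2.43 ± 0.19, miR-19b-3p by 2.38 ± 0.17, miR-29c-3p by 2.14 ± 0.16, miR-92a-3p by 2.02 ± 0.11, miR-423-5p by 1.95 ± 0.18 and miR-185-5p by 1.91 ± 0.14. The last 3 differed by 0.55, 0.48 and 0.45 on plain CPM. Liver 4 held miR-92a-3p at 1928 on the scale set over the 12 LF libraries. There the livers kept held 8364 to 9937 and the eWAT libraries kept 1997 to 2387. With all 12 LF libraries miR-92a-3p differed by 1.92 (adjusted p = 0.00024, edgeR). In liver 4 miR-29c-3p was higher than in the livers kept, at 953 against 259 to 376. miR-21a-5p, which followed miR-122-5p in liver, differed by 1.59 ± 0.17 with TMM and by 0.15 on plain CPM, where it was not called.

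Several miRNAs higher in eWAT lie in Hox gene clusters, which set positional identity along the body axis. miR-10b-5p, at chr2:74726074-74726096 in introns of Hoxd3 and Hoxd4, was at 38.2, 26, 22.2, 23 and 27.3 scaled CPM in the livers and at 17673, 15222, 17319 and 21930 in eWAT, a log2 difference of -9.36 ± 0.21 (adjusted p = 7.4e-13, edgeR). Its other arm miR-10b-3p was at 0 in every liver and at 63.6 to 95.5 in eWAT, at least 1040-fold higher there. miR-615-3p, at chr15:103014969-103014990 in an intron of Hoxc5, was at 0 in every liver and at 113, 101, 118 and 128 in eWAT, at least 1445-fold higher there. miR-196a-5p was at 0 to 2.96 in liver and 14 to 43.7 in eWAT, a log2 difference of -5.13 ± 0.98 that became -6.28 without liver 2. miR-196b-5p differed by -4.13 ± 0.99, and by -5.86 without liver 6.

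miR-10a-5p, near the Hoxb genes, departed from that pattern. It was at 7028 to 7939 scaled CPM in liver and 9880 to 13749 in eWAT, a log2 difference of only -0.59 ± 0.11, although its sequence differs from that of miR-10b-5p at 1 position, written A12U from the 5′ end with the base of miR-10b-5p first. Per count of miR-10a-5p there were 0.00283 to 0.00544 counts of miR-10b-5p in liver and 1.53 to 1.64 in eWAT. Of the 7 tested miRNAs of the Hox list 6 were higher in eWAT on both scales, where 27.6% of all counted miRNAs were. The list had a median log2 difference of -5.13, and miR-10a-3p was not called.

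Both arms of miR-708, in an intron of Tenm4 on chromosome 7, were nearly absent from liver. miR-708-5p was at 0.979, 0, 0, 0.111 and 0 scaled CPM in the livers and at 262, 150, 249 and 344 in eWAT (log2 difference -9.87 ± 0.63, adjusted p = 7.6e-08, edgeR). miR-708-3p differed by -10.21 ± 0.66. Single livers held the few liver counts, and the differences were -12.51 for miR-708-5p without liver 1 and -11.28 for miR-708-3p without liver 2. miR-204-5p, in an intron of Trpm3, was at 0 in every liver and at 64.5, 107, 45 and 67.2 in eWAT, at least 893-fold higher. miR-218-5p, in an intron of Slit3 at 1 of its 2 loci, was at 5.66 to 14 and 183 to 394 (-4.74 ± 0.33). The groups did not overlap in any of these.

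miR-143 and miR-145a, 1 cluster known from smooth muscle and from adipocyte differentiation, were higher in eWAT in 4 of 5 tested members. Of all counted miRNAs 27.6% were higher in eWAT. miR-143-3p was at 23264, 15174, 19148, 21820 and 20051 scaled CPM in the livers and at 70860, 115690, 72537 and 127720 in eWAT (log2 difference -2.28 ± 0.19). miR-145a-5p differed by -2.13 ± 0.15 and miR-145a-3p by -0.81 ± 0.13. Liver still held much of it, with 1.28% ± 0.285 (SD, n = 5) of counts in miR-143-3p.

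Of the 15 tested miRNAs of the adipocyte list 8 were higher in eWAT on both scales and 4 higher in liver with TMM only. Of all counted miRNAs 27.6% were higher in eWAT on both scales and 25.3% higher in liver with TMM. miR-335-5p and miR-335-3p, in an intron of the imprinted gene Mest on chromosome 6, were higher in eWAT and varied most. miR-335-5p was at 95.9 to 139 scaled CPM in the livers and at 1693, 260, 877 and 2366 in eWAT 2, 3, 5 and 6 (-3.49 ± 0.50). eWAT 3 was far below the other eWAT libraries and still above every liver. miR-335-3p was at 501, 82.7, 420 and 813 in the same libraries and 28.7 to 48.9 in the livers. miR-146b-5p, induced in adipogenesis and inflammation, was at 112 to 151 and 1088 to 1582 (-3.35 ± 0.14). miR-103-3p was at 3504 to 3815 and 7564 to 9055 (-1.24 ± 0.09). miR-378a-3p, studied in energy metabolism, was at 2855 and 2287 on average and was not called (0.32 ± 0.15, adjusted p = 0.091, edgeR; -1.14 on plain CPM), but it was called without eWAT 3 (0.41) and without eWAT 5 (0.42).

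**Figure D2:**
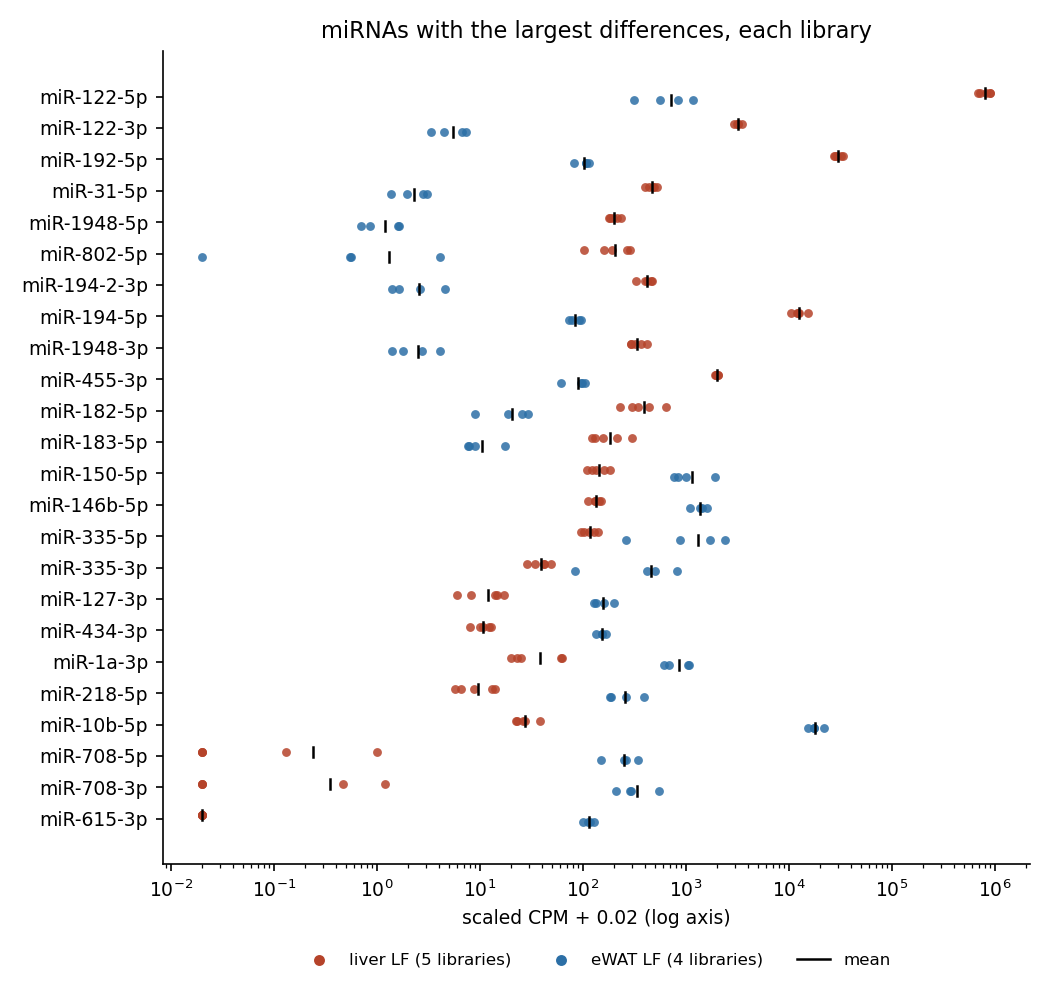
Scaled CPM plus 0.02 (log axis) of the 12 miRNAs in each direction with the largest called differences among those with at least 100 scaled CPM in the higher tissue and no overlap. Each point is 1 library, red for liver LF and blue for eWAT LF, with a black bar at the mean. In all 24 the colours stay apart, and the points at 0.02 are libraries at 0.

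Some miRNAs known from immune cells were higher in eWAT, as were 27.6% of all counted miRNAs. The lymphocyte miRNA miR-150-5p was at 110 to 183 scaled CPM in liver and at 1921, 1008, 843 and 765 in eWAT (-3.01 ± 0.27), and 5 of 10 tested members of the lymphocyte list were higher in eWAT, miR-181a-5p among them (-1.80 ± 0.13). miR-155-5p of activated immune cells differed by -2.15 ± 0.37 (-1.54 without eWAT 2) and miR-223-3p of neutrophils and macrophages by -1.22 ± 0.19. Of 7 myeloid miRNAs 4 were higher in eWAT on both scales. miR-511-3p and miR-511-5p, which lie in the macrophage mannose receptor gene, were higher in liver with TMM (1.00 ± 0.30 and 0.86 ± 0.30) and changed sign on plain CPM (-0.46 and -0.58). The call of miR-511-5p was lost without liver 1, 5 or 6 or eWAT 2 or 6. eWAT 2 was the highest eWAT library in miR-150-5p, miR-155-5p at 370 and miR-142a-5p at 772. Without eWAT 2 the call of miR-142a-5p was lost (-0.96 ± 0.33 with it, -0.46 without it). In bulk tissue more cells of a type and more RNA per cell cannot be told apart.

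Striated muscle miRNAs were present in eWAT. miR-1a-3p was at 20.2 to 62.2 scaled CPM in liver and 614 to 1066 in eWAT (-4.48 ± 0.39), miR-133a-3p at 0.394 to 5.55 and 25.6 to 79.6 (-4.96 ± 0.66, -6.17 without liver 1), and miR-499-5p at 0 to 0.435 and 5.21 to 17.6 (-6.68 ± 0.94, -10.43 without liver 1). The muscle list summed to 26.0 to 64.3 in the livers and 673 to 1146 in eWAT, with 3 of 4 tested members called and miR-206-3p not. Their source in eWAT was not tested. The endothelial miR-126a-3p was at 5557 to 6759 and 8252 to 13337 (-0.76 ± 0.13). Its call was lost with eWAT 1 and 4 added (-0.51), and miR-126a-5p was not called. Of 7 erythroid miRNAs the near-identical miR-486a-5p and miR-486b-5p were higher in eWAT, where 27.6% of all counted miRNAs were, and 5 were not called. The red cell miRNA miR-451a was at 643 to 930 in liver and 684 to 1074 in eWAT (adjusted p = 0.24, edgeR; -1.66 on plain CPM).

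The miR-34 family, which acts downstream of p53 and is abundant in ciliated epithelia and the male tract, was higher in eWAT in all 4 tested members on both scales. miR-34a-5p was at 43.1 to 89.1 scaled CPM in liver and 98.9 to 156 in eWAT (-1.17 ± 0.22), and miR-34c-5p at 1.11 to 3.88 and 12.7 to 35.95 (-3.84 ± 0.45). eWAT 1, left out, held miR-34c-5p at 1520, and with eWAT 1 and 4 added its log2 difference was -7.25. Of 17 tested miRNAs of the germ cell and epididymis list 3 were called, all of miR-34b and miR-34c. Of all counted miRNAs 52.9% were called in either direction and 27.6% were higher in eWAT on both scales.

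The imprinted Dlk1-Dio3 region on chromosome 12, whose miRNAs come from the maternal chromosome, was the largest block on the side of fat. Of its 50 tested miRNAs 38 were higher in eWAT on both scales, where 27.6% of all counted miRNAs were, and none was higher in liver. The median log2 difference was -2.82 against -0.16 over all counted miRNAs. The summed level of the region was 110 to 264 scaled CPM in the livers and 1179 to 1468 in eWAT. miR-379-5p, the most abundant member, was at 63.7, 29, 46.1, 17.9 and 17.6 in the livers and at 224, 244, 253 and 351 in eWAT (-2.94 ± 0.36). miR-434-3p was at 7.95 to 12.7 and 133 to 168 (-3.83 ± 0.18), and miR-127-3p at 5.91 to 17.1 and 128 to 199 (-3.69 ± 0.30). Both lie opposite an exon of Rtl1, to which they are antisense. miR-541-5p (-2.40 ± 0.34), miR-411-5p (-2.74 ± 0.32) and miR-382-5p (-2.78 ± 0.29) had smaller differences, and none of the 6 named overlapped.

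The other imprinted and placental blocks gave less. In the Sfmbt2 block on chromosome 2, a large rodent cluster, 9 of 27 tested miRNAs were higher in eWAT, where 27.6% of all counted miRNAs were, and miR-466b-3p, miR-466c-3p, miR-466e-3p and miR-466p-3p had the same counts and are not separate observations. No miRNA of Igf2 or H19 reached the test. In the X-linked block of miR-322 and miR-503, which slows the cell cycle, 7 of 12 tested miRNAs were higher in eWAT on both scales, miR-322-5p at 12.3 to 24.9 and 99.9 to 157 (-2.62 ± 0.24).

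The widely expressed families mostly stood on the liver side with TMM and lost that call on plain CPM. Of all counted miRNAs 25.3% were called higher in liver with TMM. In the miR-30 family 9 of 11 tested members were higher in liver with TMM, miR-30e-5p by 1.43 ± 0.13 (-0.02 on plain CPM), and none was on both scales. In the miR-26 family it was 3 of 4, again none on both scales. In the miR-29 family, which restrains collagen production, 6 of 7 were higher in liver, only miR-29c-3p on both scales, and in the miR-101 family 3 of 4, only miR-101b-3p on both scales. In miR-221 and miR-222 it was 2 of 4, none on both scales, and none of 6 members of the miR-130 and miR-301 family was called in either direction.

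Other families split between the tissues, where 25.3% of all counted miRNAs were higher in liver and 27.6% higher in eWAT. Of 18 tested miRNAs of miR-17-92 and its paralogs, which promote proliferation, 6 were higher in liver (miR-19b-3p and miR-92a-3p on both scales), and miR-363-3p was higher in eWAT (-3.68, and not called without eWAT 2). Of 11 miRNAs of the miR-15 and miR-16 list 3 were higher in liver with TMM only and 5 higher in eWAT on both scales, miR-195a-5p by -2.05 ± 0.17. The miR-99, miR-100 and miR-125 list had 6 of 10 higher in eWAT and none in liver, miR-100-5p by -0.81 ± 0.10. In the miR-199 and miR-214 list of mesenchymal cells 3 of 6 were higher in eWAT and miR-199a-5p higher in liver with TMM. In this list miR-199a-3p and miR-199b-3p have the same sequence and are not separate observations.

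The lists of other organs went both ways, where 52.9% of all counted miRNAs were called. In the glandular list miR-204-5p was higher in eWAT, miR-203-3p higher in liver with TMM only (1.29 ± 0.10, -0.17 on plain CPM), and 4 of 6 were not called. Of 7 neural miRNAs 3 were higher in eWAT, miR-218-5p among them, and 2 higher in liver with TMM only. Of 5 listed for pancreas both tested arms of mir-7a-1 were higher in liver and miR-217-5p was higher in eWAT, a call lost without eWAT 3. Of 24 metabolic regulators 13 were higher in liver, 3 of them on both scales (miR-802-5p, miR-802-3p and miR-29c-3p), and 3 were higher in eWAT. Of 8 miRNAs made without Drosha 2 were higher in eWAT. In the list of miR-148 and miR-152, 2 were higher in liver on both scales and miR-152-3p was higher in eWAT (-0.50 ± 0.13).

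**Figure D3:**
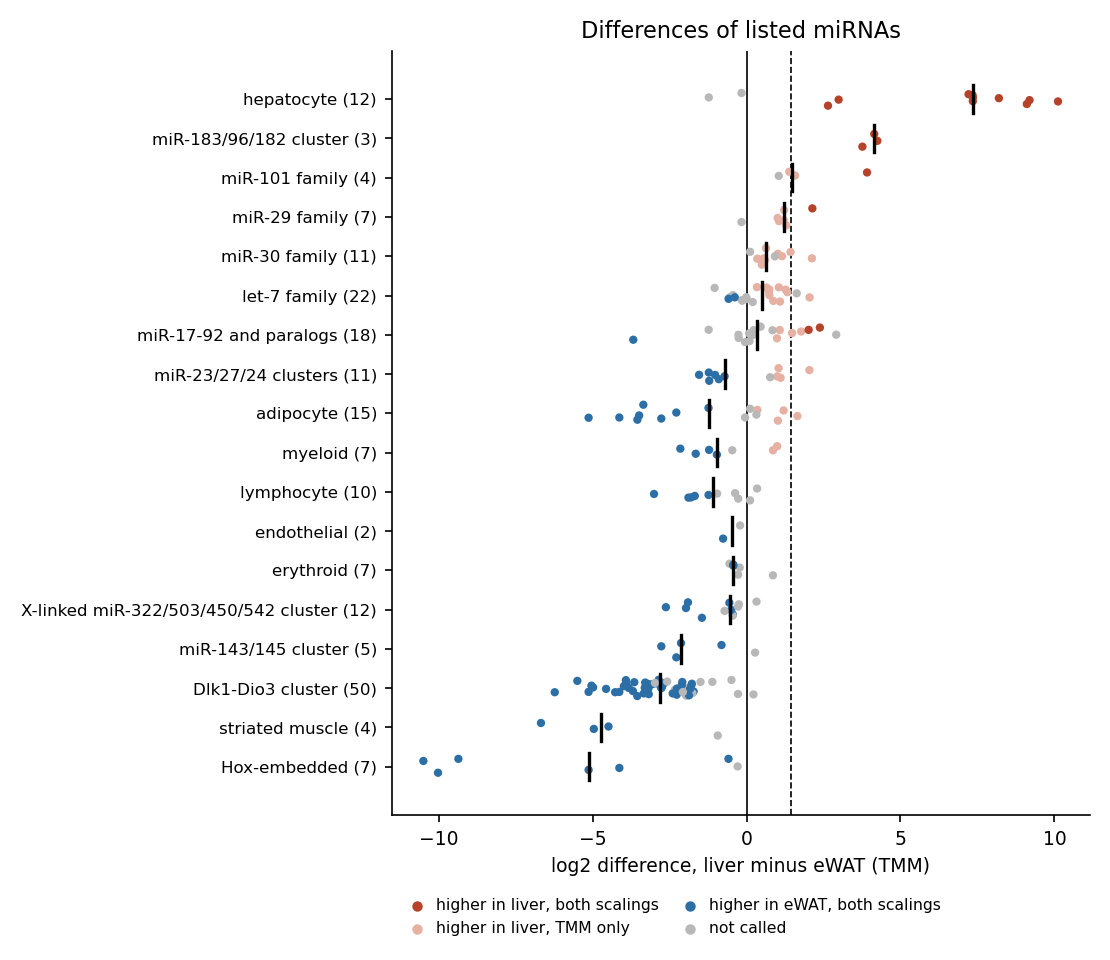
Fitted log2 difference (liver minus eWAT, TMM) of each tested miRNA in 18 lists, with the number tested in brackets and a black bar at the list median; a miRNA at 0 in 1 tissue is drawn at its bound. The solid line is 0 and the dashed line the median shift of 1.45 between TMM and plain CPM, and points between the lines change sign on plain CPM. The hepatocyte list lies right of both lines but for the miR-215 arms, and no member of the Dlk1-Dio3 list is called higher in liver.

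The let-7 family, named in the title of the series, shows how much the scale decides. Its 5p arms held 16.2%, 18.5%, 18.0%, 17.6% and 17.6% of the counts of the livers and 30.1%, 27.01%, 29.9% and 23.2% of those of the eWAT libraries, lower in every liver. With miR-122-5p taken out of the totals the shares were 30.6%, 40.02%, 38.3%, 34.7% and 36.3% in liver and 30.13%, 27.05%, 29.98% and 23.25% in eWAT, higher in every liver. On scaled CPM the sum differed by a log2 of 0.82 ± 0.095 (exact 2-sided permutation p = 0.015873, n = 5 and 4) and on plain CPM by -0.64. No direction is given for the family as a whole.

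Within the family the members did not move together. let-7g-5p differed by 1.33 ± 0.10, let-7a-5p by 1.09 ± 0.13, let-7f-5p by 1.05 ± 0.10 and let-7d-5p by 0.87 ± 0.13 with TMM, and each changed sign on plain CPM (-0.13, -0.39, -0.42 and -0.61). let-7c-5p (0.20 ± 0.13) and let-7b-5p (-0.01 ± 0.17) were not called with TMM. let-7i-5p was at 4126 to 4493 scaled CPM in liver and 5488 to 7323 in eWAT (-0.58 ± 0.10) and was higher in eWAT on both scales. Of 22 tested members of the wider list 11 were higher in liver with TMM, none of them on both scales, and 2 higher in eWAT. Of all counted miRNAs 25.3% were higher in liver with TMM and 27.6% higher in eWAT.

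A ratio of 2 miRNAs within a library does not depend on the scale. Seeds were known only for names matched in RefSeq, so unmatched members of a family were left out. This gave 43 seed families with at least 2 tested members of unlike sequence. In each, the count of the most abundant matched member was divided by that of the second (0.5 added to each). The choice of this measure was made after the values had been seen. In 19 of 43 families (44.2%) the libraries of the tissues did not overlap. Without overlap an exact 2-sided permutation test always gives p = 0.015873, the smallest possible, here 0.0359 after adjustment over the 43. The test therefore only repeats the lack of overlap. In 10 of the 19 families the leading member took more of the pair in liver and in 9 more in eWAT.

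miR-103-3p and miR-107-3p, which lie in introns of the pantothenate kinase genes Pank3 (1 of 2 loci) and Pank1 and act on insulin sensitivity, moved apart. There were 6.70 to 9.35 counts of miR-103-3p per count of miR-107-3p in liver and 49.4 to 65.3 in eWAT. They differ at 1 position, G22C with the base of miR-103-3p first, so a read that ends before that base cannot tell them apart. miR-103-3p was higher in eWAT on both scales, while miR-107-3p was at 375 to 569 scaled CPM in liver and 139 to 170 in eWAT (1.65 ± 0.14 with TMM, 0.19 on plain CPM).

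In the libraries kept, the 2 paralogous clusters of miR-23, miR-27 and miR-24 were used in opposite proportion. There were 7.07 to 9.36 counts of miR-27b-3p per count of miR-27a-3p in liver and 1.52 to 2.13 in eWAT. miR-23a-3p was at 3558 to 4352 scaled CPM in liver and 10541 to 12184 in eWAT (-1.54 ± 0.10), and miR-23b-3p at 3941 to 5167 and 1992 to 2369 (1.04 ± 0.11, -0.42 on plain CPM). The cluster on chromosome 8 that holds miR-23a had 6 arms called, all higher in eWAT. Of the arms of the cluster on chromosome 13, miR-23b-3p, miR-23b-5p, miR-27b-3p and miR-24-1-5p were called higher in liver with TMM, none on both scales. miR-24-3p, which both clusters encode, was higher in eWAT. On the scale set over the 12 LF libraries liver 4, left out, held miR-27b-3p at 1669 and miR-23b-3p at 674. There the eWAT libraries kept held 3768 to 4547.5 and 2049 to 2432.5. Liver 4 also held miR-23a-3p at 382, where the livers kept held 3535 to 4652.5. With all 12 LF libraries miR-23b-3p was not called and miR-27b-3p was (0.83 and 0.92, adjusted p = 0.070 and 0.030, edgeR).

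Other families shifted too. There were 22.5 to 33.8 counts of miR-148a-3p per count of miR-152-3p in liver and 2.08 to 3.27 in eWAT. The pair miR-92a-3p and miR-25-3p stood at 6.14 to 8.67 and 1.63 to 1.92, and miR-16-5p over miR-195a-5p at 14.9 to 28.7 and 3.09 to 4.09. miR-146b-5p outnumbered miR-146a-5p only in fat, with ratios of 0.299 to 0.459 in liver and 2.39 to 5.19 in eWAT. miR-26a-5p over miR-26b-5p was 1.74 to 2.15 in liver and 4.26 to 5.09 in eWAT, and miR-29a-3p over miR-29c-3p 25.9 to 32.2 and 55.8 to 68.3. miR-28a-5p, which shares its seed with miR-708-5p, had 573 to 13677 counts per count of the latter in liver, with 0.5 added to each count, and 0.787 to 1.76 in eWAT.

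In some families the ratio of the leading matched pair stayed within the spread. let-7f-5p over let-7a-5p was 1.37 to 1.58 in liver and 1.42 to 1.72 in eWAT, a log2 difference of -0.04 ± 0.079 (adjusted p = 0.647, exact permutation). miR-30a-5p over miR-30c-5p was 2.28 to 3.35 and 2.39 to 4.17, miR-125a-5p over miR-125b-5p 1.14 to 1.94 and 1.18 to 1.44, and miR-181a-5p over miR-181b-5p 4.13 to 5.37 and 4.44 to 5.54. These 4 ratios overlapped between the tissues, and the other members of the families were not compared in this way. Among those was miR-30d-5p, which had no RefSeq match and was more abundant than miR-30c-5p in both tissues. It took 1.43% of liver and 2.54% of eWAT counts, and miR-30c-5p took 0.885% and 1.73%.

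**Figure D4:**
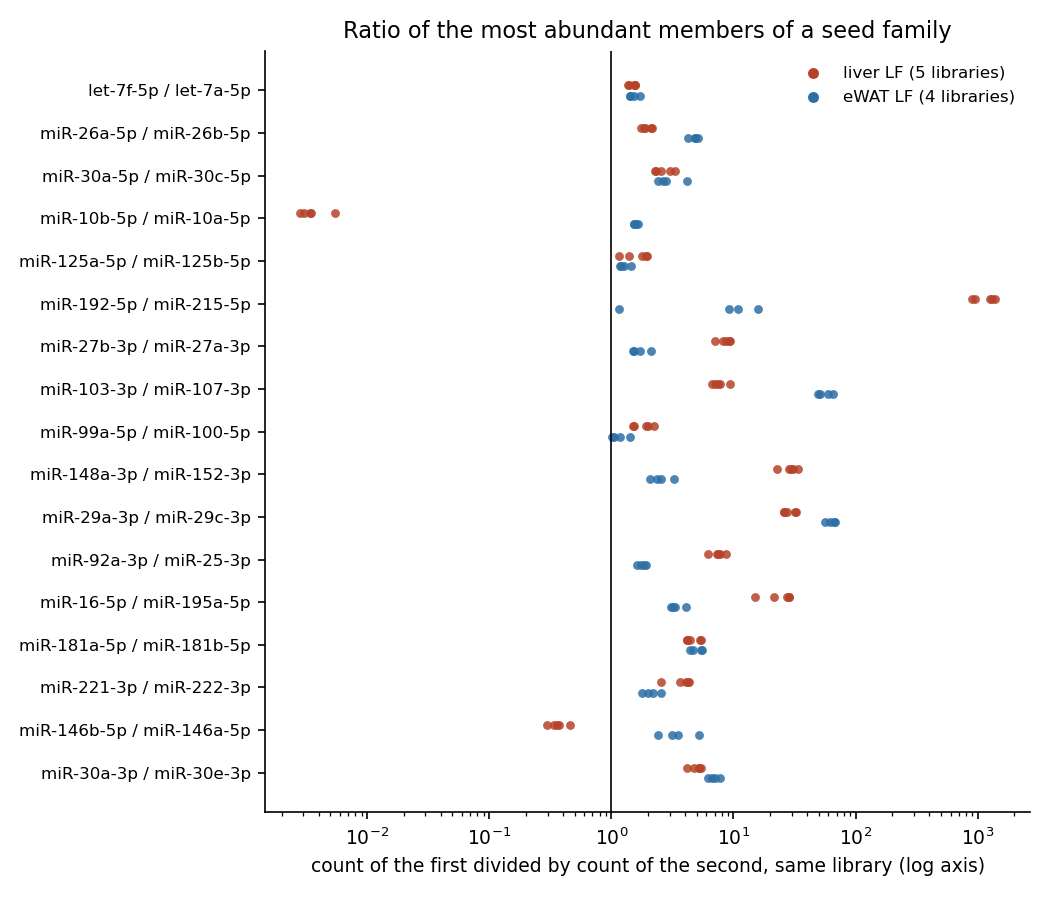
Count of the most abundant RefSeq-matched member of a seed family divided by the count of the second in the same library (log axis), for the 17 families with the highest counts. Each point is 1 library, red for liver LF and blue for eWAT LF, and the line marks equal counts. The ratio of miR-10b-5p to miR-10a-5p is at most 0.00544 in the livers and at least 1.53 in the eWAT libraries, while let-7f-5p over let-7a-5p overlaps.

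Summed over all RefSeq-matched miRNAs with 1 seed, 89 of 376 counted seeds (23.7%) were higher in liver and 110 (29.3%) higher in eWAT with TMM. Matched names held 45.3% of liver and 77.3% of eWAT counts, and members without a match, such as miR-30d-5p, entered no seed sum. On both scales there were 27 and 110. The seed of miR-192-5p and miR-215-5p took 1.93% ± 0.266 of liver counts and differed by a log2 of 7.75 ± 0.25, and that of miR-148a-3p, miR-148b-3p and miR-152-3p by 2.38 ± 0.14. The seed of miR-10a-5p and miR-10b-5p took 0.488% ± 0.0292 of liver and 5.17% ± 0.734 of eWAT counts, a log2 difference of -2.03 ± 0.11. The seed of miR-103-3p and miR-107-3p differed by -1.16 ± 0.09, since the larger member set the sum. The joint seed of miR-26a-5p and miR-26b-5p was not called (0.20 ± 0.11) although their ratio shifted.

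The arms of a precursor can be compared in the same way. Of 163 precursors with enough counts of both arms, 38 (23.3%) had a ratio of 5p to 3p that differed between the tissues (limma, adjusted p under 0.05), 17 with more 5p in liver and 21 with more 5p in eWAT. By the mean log2 ratio the same arm dominated in both tissues in 157 of the 163. In mir-32 and mir-423 the arm with the higher mean changed and the ratio was called. For mir-423 neither arm led in all livers. The log2 ratio of mir-423 was -0.18, 0.40, 0.26, 0.02 and -0.02 in the livers and -1.09, -0.91, -0.83 and -1.65 in eWAT (difference 1.21 ± 0.21, limma). That of mir-32 was -1.57 to -0.46 in liver and 0.26 to 1.43 in eWAT (difference -1.55 ± 0.41).

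Among the precursors with the largest called changes was mir-322 of the X-linked block. Its log2 ratio was -4.48 to -3.51 in liver and -2.02 to -1.45 in eWAT, a difference of -2.23 ± 0.26. miR-199a had relatively more 5p in liver, with log2 ratios of -3.60 to -3.16 and -4.94 to -4.39 (difference 1.29 ± 0.17), but its 3p arm has the sequence of miR-199b-3p and shares its reads. mir-338 (1.29 ± 0.41), mir-369 (-1.93 ± 0.56) and mir-542 (-1.62 ± 0.44) were also called. The call of mir-338 was lost without any 1 of liver 2, 3, 5 or 6 or any 1 of the eWAT libraries, that of mir-369 without liver 3, and that of mir-542 without eWAT 2 or 3. For mir-125b-1 (2.37 ± 0.33), mir-24-1 (1.69 ± 0.26), mir-7a-1 (1.36 ± 0.22), mir-181a-2 (-2.16 ± 0.26) and mir-30c-1 (-1.77 ± 0.32) another precursor makes 1 arm too, so the ratio also holds the use of that precursor. The calls depend on the libraries: with liver replicate 4 added 8 were called in all, and with all 12 LF libraries 18. Where both arms of a precursor were called between the tissues, 61 of 63 pairs went the same way.

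**Figure D5:**
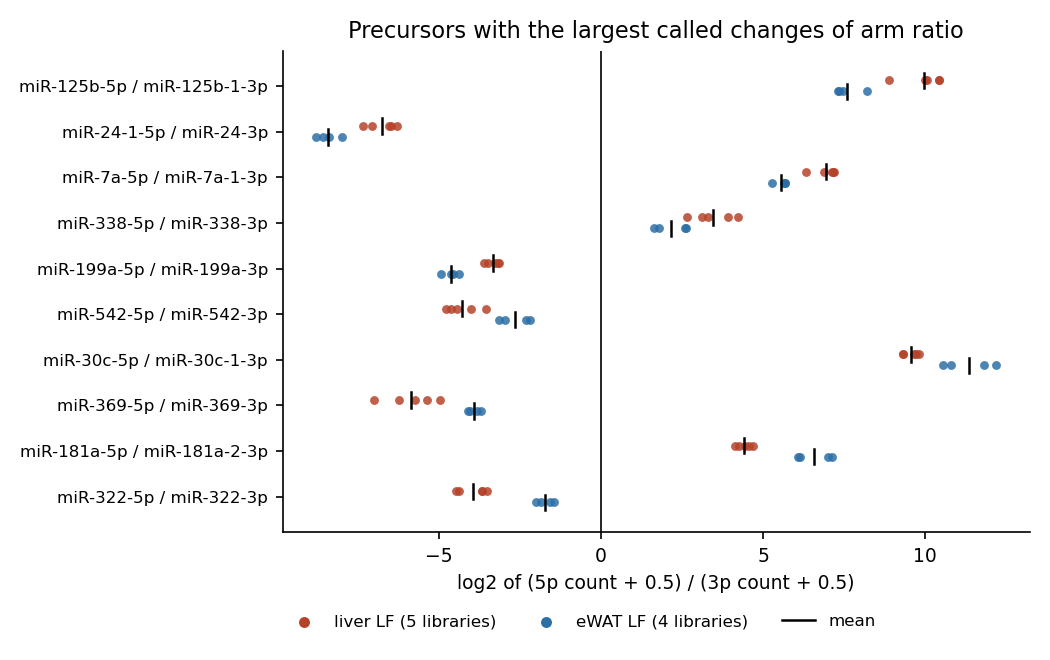
Log2 of the 5p over the 3p count, each with 0.5 added, in each library for the 5 precursors with the largest called change of arm ratio in each direction, red for liver LF, blue for eWAT LF and a black bar at the mean. The line marks equal counts of the arms. No precursor in the plot crosses the line from one tissue to the other, and mir-322 lies at -4.48 to -3.51 in liver and -2.02 to -1.45 in eWAT.

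Positions came from the RefSeq match, which 452 of the 544 tested miRNAs had, so clusters such as that of miR-143 and miR-145a are not counted here. Hairpins of these miRNAs within 10 kb of each other formed 35 clusters, and 25 of them had at least 2 called. In 11 all called miRNAs were higher in liver, in 11 all were higher in eWAT, and in 3 they went both ways. A miRNA made from several loci counts in each of their clusters. In each of the 3 a called miRNA is also made from another locus. These counts therefore cannot show that neighbouring hairpins went opposite ways. The clusters with the highest median were miR-192 with miR-194-2 on chromosome 19 and the miR-183 cluster on chromosome 6. One of those that went both ways holds miR-199a-2 and miR-214 on chromosome 1, where miR-199a-5p was at 202 and 117 on average (0.79 ± 0.19 with TMM, -0.64 on plain CPM and 0.12, no longer called, with eWAT 1 and 4 added) and miR-214-3p was not called. The eWAT call of this cluster was miR-199a-3p, the other arm of miR-199a, which shares its reads with miR-199b-3p.

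A few abundant miRNAs had nearly equal scaled CPM. miR-26a-5p was at 37543 to 51725 in liver and 40760 to 46392 in eWAT (-0.05 ± 0.11, 95% confidence interval -0.28 to 0.19). miR-125a-5p (-0.02 ± 0.18), miR-25-3p (-0.05 ± 0.10), miR-151-5p (0.01 ± 0.10) and let-7b-5p were likewise within 0.05 of 0. On plain CPM the 5 stood between -1.51 (miR-26a-5p) and -1.46 (miR-151-5p).

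The miRNAs called on both scales were described by their sequence where RefSeq had one. The 29 higher in liver began with U in 62.07% and had a median GC content of 45.45%, and the 125 higher in eWAT began with U in 44.8% with a median of 47.62%. Of all 452 tested with a sequence 42.26% began with U and the median GC content was 47.72%. Chromosome 12 held 36 of the 125 and 1 of the 29, and 64 of all 452.

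The HF and HFLF libraries share no sample with LF. In HF (5 livers, 6 eWAT libraries) 343 of 552 counted miRNAs were called (62.1%), and in HFLF (6 and 6) 327 of 515 (63.5%). Of the 284 LF calls 279 were tested in HF, 260 were called there in the same direction and none in the opposite one. In HFLF 275 were tested, 253 were called in the same direction and none in the opposite one. In both groups 241 were called in the LF direction. The log2 difference of miR-122-5p was 9.76 in HF and 9.55 in HFLF, that of miR-192-5p 8.30 and 8.12, and that of miR-10b-5p -10.15 and -10.43. The pair of miR-103-3p (-0.99 and -1.16) and miR-107-3p (1.82 and 1.87) kept its directions. With TMM miR-215-5p was higher in liver there (1.55 in HF and 1.66 in HFLF), where LF gave -0.16. The differences in this paragraph are on scaled CPM, and in LF the scales differed by a median of 1.45.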

How the data were processed

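Small RNA of liver and eWAT was sequenced (NEXTFLEX Small RNA-seq Kit v3, Illumina NovaSeq, per the labels' protocols). Reads were processed with cutadapt and Bowtie on GRCm38.p6, per the submitters' processing notes, whose versions and settings the sources used here do not give. What the authors deposited are raw counts for each pair of mature miRNA and precursor, CPM of the same columns, and log2 CPM tables per tissue. Only the counts were tested; the deposited CPM were used to check the columns, and the deposited log2 tables to see which libraries the authors kept. Column names were matched to tissue through the tables per tissue and to group through their letters.

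For each mature name the row with the highest total was used, because rows of 1 miRNA repeat its reads: 51 of 87 names with several rows had identical rows, and 13.7% to 26.6% of a column lay outside the rows used. Genomic origin, isoforms and single-base relatives cannot be told apart in these counts. Of 1966 miRNAs 1113 had a count in the 9 libraries, and 544 passed edgeR's filterByExpr (minimum count 10). TMM and the quasi-likelihood F test of edgeR 4.0.16 in R 4.3.3 gave differences, standard errors and adjusted p-values. Arm ratios (0.5 added to each count, both arms with at least 10 counts in at least 4 libraries) were tested with limma 3.58.1, and single values with exact permutation tests (scipy 1.17.1). The edgeR procedure was tested on simulated data for this comparison: of 604 tested of 664 simulated miRNAs it recovered 79.6% of 2-fold and 100% of 4-fold changes, with 2.96% false calls. Both simulated tissues were drawn from the eWAT means with the same spread for every miRNA. The real libraries differ in this, and these rates need not hold for them. Replicate libraries differed far beyond sampling noise, so none was counted as a duplicate. Floors cover counting error only, since reads are not molecules.

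Named are the 10 most abundant miRNAs of each tissue, the 12 largest called differences in each direction at 100 CPM or more without overlap, up to 4 abundant members of each list, the 5 largest called arm changes in each direction, the 5 smallest differences at 1000 CPM or more, and seed families split past 2-fold or most abundant. Others, and the seed family ratios, were chosen after their values were seen. The libraries, lists and tests were chosen with earlier results of these data known. Replicate numbers did not pair the tissues: deviations of same-numbered libraries correlated at 0.058, -0.078, -0.041 and 0.081. Alternatives were other scalings, filters, tools (DESeq2 1.42.0, limma-voom), summed rows, added or left-out libraries and a replicate block.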

Additional observations from a re-analysis of the deposited data

Results flagged for a closer look

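In 6 of 92 groups of values examined 1 library stood apart from its group, where chance gives about 1 in 20. For let-7c-5p in eWAT it was replicate 6 at 26405 scaled CPM, below the others. For miR-802-5p in eWAT it was replicate 3 at 4.10, and for miR-183-5p in eWAT replicate 3 at 17.3, both above the others. For miR-708-5p in liver it was replicate 1 at 0.979, where the other livers held 0 to 0.111. The log2 ratio of miR-125b-5p to miR-125b-1-3p was 8.87 in liver 3, below the other livers, and that of miR-7a-5p to miR-7a-1-3p was 5.27 in eWAT 2, below the other eWAT libraries.

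The eWAT libraries left out of the comparison held the miR-200 family at 15997 CPM (eWAT 1) and 20819 CPM (eWAT 4), against 104.7 to 290 in those kept.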

How the results depend on the processing

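Main counts kept within 1.5 times of the reported value under the alternatives apart from those given here. On plain CPM 39 miRNAs were higher in liver and 334 in eWAT, past 2-fold 28 and 247 (275 in all), 27 and 232 seeds, and the let-7 sum changed sign to -0.64. Calls on both scales numbered 39 for liver. With a minimum of 10 CPM the eWAT counts were 98 and, past 2-fold, 56; with all 36 libraries the latter was 150. Seeds higher in liver were 56 with all 12 LF libraries and 56 with liver 4 added (132 in all). Arm calls were 18 with all 12 LF libraries (9 and 9), 8 with liver 4 added (6 with more 5p in liver, 2 in eWAT), and 25 with all 36 libraries (13 with more 5p in eWAT). With 1 library left out, 246 to 275 miRNAs were called, 121 to 135 higher in liver and 122 to 143 in eWAT, and the arm counts were 27 to 41 in all, 12 to 19 with more 5p in liver and 13 to 22 in eWAT (13 without eWAT 3). Non-overlapping seed family ratios were 19 to 22, and 16 with all 12 LF libraries. Same-numbered libraries share only a number, and 2 of 4 livers correlated best with the eWAT library of their own number. With a replicate block 236 miRNAs differed, and the arm calls were 23 (11 with more 5p in eWAT).

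The depth limits miRNAs near 1 count, which is 0.0641 to 0.127 CPM in the 9 libraries. On plain CPM the sign changed for let-7a-5p (-0.39), let-7c-5p (-1.28), let-7d-5p (-0.61), let-7f-5p (-0.42), let-7g-5p (-0.13), miR-148b-3p (-0.47), miR-151-5p (-1.46), miR-16-5p (-0.72), miR-199a-5p (-0.64), miR-203-3p (-0.17), miR-205-5p (-1.31), miR-214-3p (-1.25), miR-23b-3p (-0.42), miR-24-1-5p (-0.45), miR-26b-5p (-0.23), miR-27b-3p (-0.34), miR-28a-5p (-0.28), miR-29a-3p (-0.44), miR-30a-5p (-1.09), miR-30c-5p (-0.97), miR-30d-5p (-0.83), miR-30e-5p (-0.019), miR-378a-3p (-1.14), miR-511-3p (-0.46), miR-511-5p (-0.58) and miR-7a-1-3p (-0.36). With TMM without miR-122-5p and miR-143-3p the sign changed for let-7b-5p (0.013). With a minimum of 10 CPM in 4 libraries the sign changed for let-7b-5p (0.097), miR-125a-5p (0.086), miR-25-3p (0.065) and miR-26a-5p (0.062). With rows of a name summed the sign changed for let-7b-5p (0.020) and miR-125a-5p (0.010). With all 12 LF libraries the sign changed for let-7b-5p (0.45), miR-151-5p (-0.021), miR-205-5p (-5.92), miR-214-3p (-0.39), miR-451a (0.037) and miR-96-5p (-0.53). With liver 4 added the sign changed for let-7b-5p (0.50), miR-151-5p (-0.083) and miR-205-5p (-0.13). With eWAT 1 and 4 added the sign changed for let-7b-5p (0.035), miR-205-5p (-5.66), miR-214-3p (-0.32), miR-215-5p (0.18), miR-25-3p (0.039), miR-451a (0.093) and miR-96-5p (-0.30). With all 36 libraries the sign changed for let-7b-5p (0.29), miR-151-5p (-0.20), miR-199a-5p (-0.19), miR-205-5p (-5.99), miR-214-3p (-0.57) and miR-96-5p (-0.64). With the replicate block the sign changed for let-7b-5p (0.037), miR-125a-5p (0.090), miR-205-5p (-0.41) and miR-215-5p (0.83). With upper quartile factors the sign changed for let-7c-5p (-0.057), miR-151-5p (-0.25), miR-205-5p (-0.092) and miR-214-3p (-0.049). With DESeq2 size factors in edgeR the sign changed for miR-151-5p (-0.16) and miR-205-5p (-0.022). With no filter beyond 1 count the sign changed for miR-151-5p (-0.023). With DESeq2 the sign changed for miR-151-5p (-0.16) and miR-205-5p (-0.022). With limma-voom the sign changed for miR-205-5p (-0.10) and miR-215-5p (0.81). With 1 library left out the sign changed for let-7b-5p (-0.12 to 0.084), miR-125a-5p (-0.13 to 0.084), miR-146a-5p (-0.35 to 0.15), miR-151-5p (-0.043 to 0.049), miR-205-5p (-0.085 to 0.47), miR-215-5p (-0.49 to 1.61) and miR-26a-5p (-0.11 to 0.036). The cause of these changes was not tested.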
